A study of Mus musculus with 16 samples.

Results

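The sebaceous gland lipid genes are 10 genes of sebum production and lipid storage, Scd1, Scd3, Fasn, Elovl3, Awat1, Awat2, Mc5r, Soat1, Dgat2 and Plin2. They were chosen by symbol, for their roles, with earlier results of these data known. They make up 10 of the 23282 gene rows in the deposited count tables. Levels were measured in dorsal skin of wild-type male C57BL/6N mice, 4 mice in each of 4 groups with 1 library per mouse. Cont mice ate normal chow. LowAhR mice ate a diet low in ligands of the aryl hydrocarbon receptor (AhR), a transcription factor switched on by small molecules from food and microbes, for 12 weeks on paper bedding. LowAhR+AD mice had the same diet and bedding and, after its first 2 weeks, were given 1% 2,4-dinitrochlorobenzene (DNCB) in acetone and olive oil repeatedly on the dorsal skin for 10 weeks, a hapten model of atopic dermatitis (AD). LowAhR+AD+BJ mice had diet, bedding and DNCB and in addition received Bojungikgi-tang (BJIKT), a herbal decoction, by gavage at 1 g/kg per day over those 10 weeks. All mice were bought at 3 weeks of age and rested for 1 week. No group received DNCB on normal chow, so DNCB was compared only on the low AhR ligand diet, and the treatment of the LowAhR and Cont skin with solvent alone is not given in the sources used here.

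Sebaceous glands sit beside hair follicles and release sebum, a mixture of wax esters, triglycerides, cholesterol and cholesteryl esters, when their lipid-filled cells burst. The fatty acids of sebum are built by fatty acid synthase, lengthened by elongases and given a double bond by stearoyl-CoA desaturases, and are then joined to alcohols, glycerol or cholesterol by acyltransferases and stored in droplets. Mice without Scd1 have shrunken sebaceous glands and dry, scaly skin, and several of these enzymes are also active in the fat layer under the dermis, Scd1, Fasn, Dgat2 and Plin2 among them.

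Libraries held 7080508 to 13467477 counts, and each library from DNCB-treated mice was deeper than each library from mice without DNCB. Levels are given as CPM, the library's counts scaled by TMM factors to a common total. QuantSeq reads only the 3' end of a messenger RNA, so counts do not grow with transcript length. LowAhR+AD replicate 1 stood apart: 32.6% of the genes expected there at 20 to 40 counts were at 0, against at most 13.8% in every other library. Differences of called members that include it are also given without it, as are some of the others. Skin markers were present, with summed epidermis markers of 6000.1 to 16056 CPM over the 16 libraries. The 12 sebaceous gland marker genes, none of them a member, all had counts in every group, and their summed level ran from 1648 to 4005 CPM. Mogat1 among them was near the floor, at group means of 0.340 (Cont) to 1.06 CPM (LowAhR).

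Called genes passed edgeR's quasi-likelihood test, run over 14854 gene rows and all 16 libraries, at a Benjamini-Hochberg adjusted p under 0.05. Of the 10 members, 9 had enough counts to be tested. Between LowAhR+AD and LowAhR, 4 of these 9 were called, against 12.6% of all genes tested, and all 4 were lower in LowAhR+AD, against 6.21% of all genes. They were the desaturases Scd1 and Scd3, the wax ester enzyme Awat2 and the triglyceride enzyme Dgat2. Elovl3, Fasn, Soat1, Awat1 and Plin2 were not called. The median log2 fold change of the 9 members was -0.16, beside 0.038 for all genes, and the other 5 members had log2 fold changes of -0.16 to 1.03. In these 4 genes each LowAhR+AD library lay below each LowAhR library, as it did for 9.85% of all genes. Because the members were chosen with earlier results known, these counts describe them and are no test of the set.

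**Figure D1:**
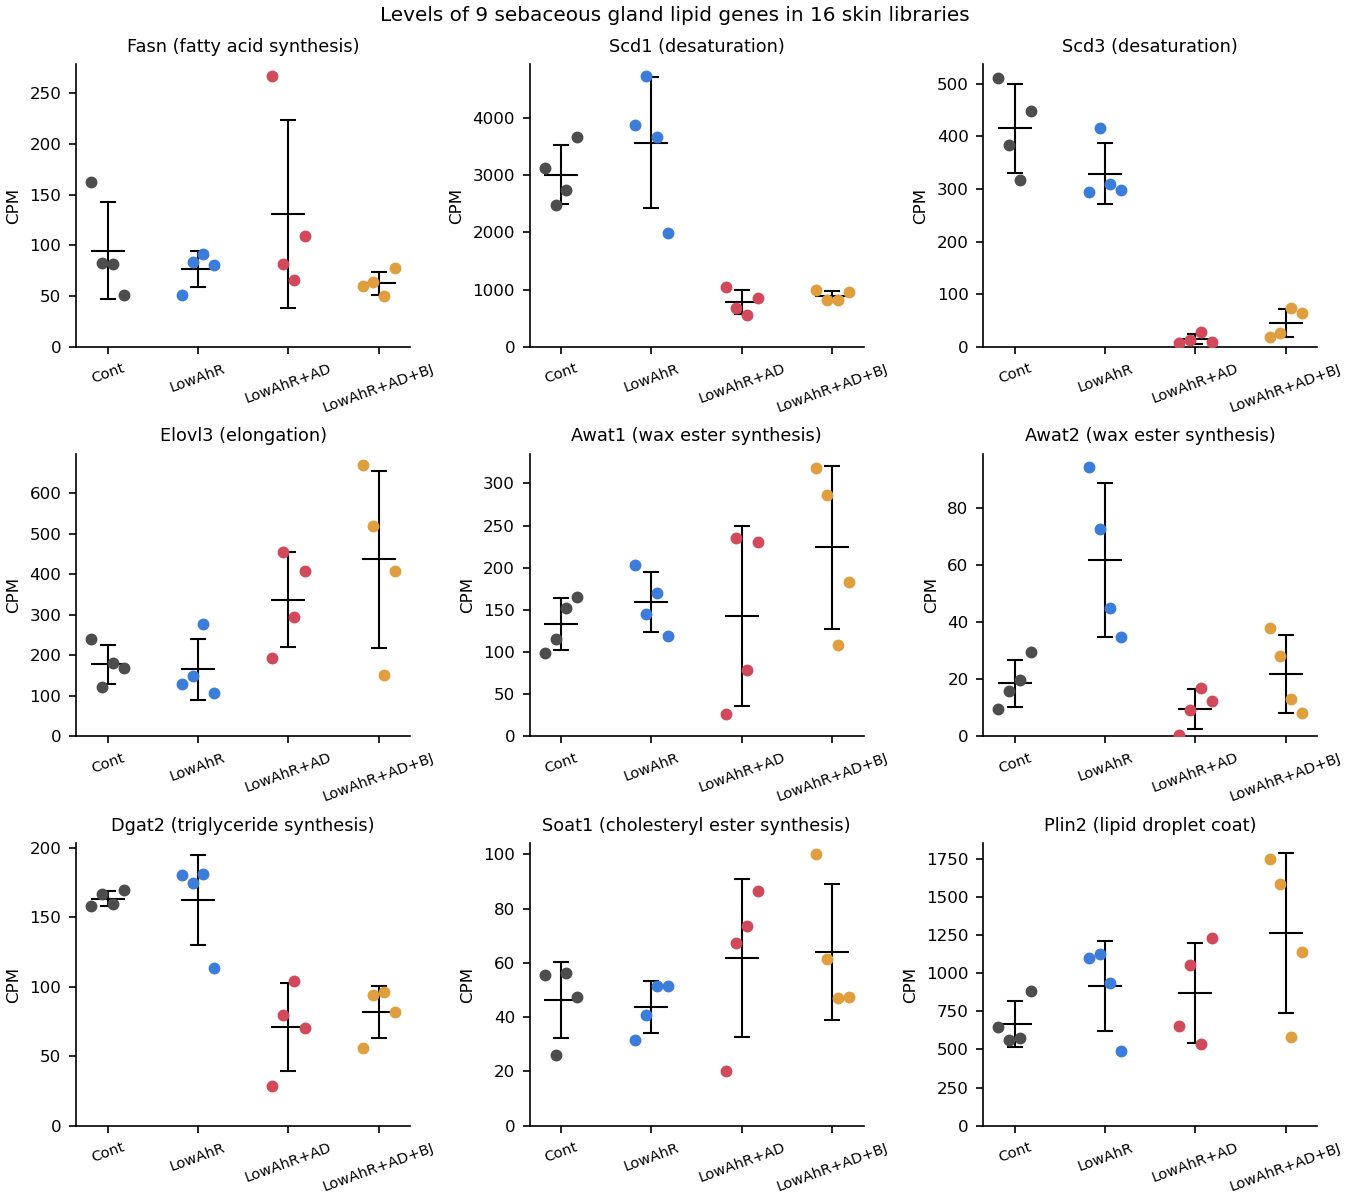
Level of 9 members in each library, in CPM on a linear axis from 0, by group. Each point is 1 mouse (replicates 1 to 4 from left to right), the long bar is the mean and the whiskers are 1 SD. Scd1, Scd3 and Dgat2 lie lower in every library of both DNCB groups than in every Cont and LowAhR library, and the Awat2 levels of LowAhR lie above those of Cont. LowAhR+AD+BJ was not compared with Cont, and the share of all genes below both groups without DNCB in this way was not computed.

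Scd1 encodes the main desaturase of mouse skin, which places a double bond in stearic and palmitic acid. Its gene lies at chr19:44394455-44407879 on the minus strand (GRCm38). Scd1 was at 3132, 2481, 2741 and 3661 CPM in the Cont libraries. It was at 3868, 4728, 3668 and 1995 CPM in LowAhR. All LowAhR+AD libraries lay below these, at 1039, 675, 564 and 853 CPM, and so did those of LowAhR+AD+BJ, at 984, 824, 817 and 949 CPM. Scd1 fell by 2.19 on the log2 scale (SE 0.28), a 4.55-fold lower level, in LowAhR+AD against LowAhR (adjusted p = 0.000201, edgeR with Benjamini-Hochberg adjustment), and the log2 difference was -2.36 without LowAhR+AD replicate 1. Group means ran from LowAhR at 3565 ± 1143 through Cont at 3003 ± 513 and LowAhR+AD+BJ at 894 ± 85.6 to LowAhR+AD at 783 ± 208 CPM (SD, n = 4). LowAhR and Cont did not differ by the edgeR test, nor did LowAhR+AD+BJ and LowAhR+AD, while Cont and LowAhR+AD+BJ did not overlap and were not compared.

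Scd3, a desaturase close to Scd1 in sequence and known from the sebaceous gland, lies at chr19:44203269-44244016 on the plus strand, 150438 bases from Scd1. Scd3 stood at 512, 384, 317 and 448 CPM in Cont. LowAhR libraries had 293, 416, 309 and 298 CPM of Scd3. In LowAhR+AD it was at 7.32, 13.3, 28.4 and 9.15 CPM and the highest of these lay far below the lowest LowAhR library. LowAhR+AD+BJ libraries held 17.97, 25.8, 73.0 and 64.0 CPM, still below every library without DNCB. Scd3 fell by 4.50 on the log2 scale (SE 0.48), to a 22.6-fold lower level, in LowAhR+AD against LowAhR (adjusted p = 0.000115, edgeR with Benjamini-Hochberg adjustment), the 3rd lowest p of all genes tested. Without LowAhR+AD replicate 1 the log2 difference was -4.29 (adjusted p = 8.98e-05, edgeR).

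Because counting may divide reads between close copies, the last 500 bases of the longest transcript of each member were searched for identical stretches of 75 bases shared with another gene, and 0 of 426 positions were shared for any member. The search does not cover reads aligned with mismatches or from other 3' ends, so division of reads between Scd1 and Scd3 was not tested. Scd3 counts were 14.0%, 13.4%, 10.4% and 10.9% of the Scd1 and Scd3 counts together in Cont. In LowAhR the share was 7.05%, 8.09%, 7.76% and 13.004%. It was 0.700%, 1.93%, 4.79% and 1.06% in LowAhR+AD, and 1.79%, 3.04%, 8.20% and 6.32% in LowAhR+AD+BJ. The lowest share, in LowAhR+AD replicate 1, was 96 of 13724 counts, with a 95% Wilson interval of 0.573% to 0.853%, which covers counting error only. Scd3 was thus lower relative to Scd1 in LowAhR+AD: the log2 ratio of Scd3 to Scd1 differed from LowAhR by -2.53 and from Cont by -3.06, with no overlap between groups. Each two-sided exact permutation test gave p = 0.0286, the smallest that 4 against 4 can give, and 0.0571 after Benjamini-Hochberg adjustment over the 10 ratio tests run on Scd3 over Scd1 and Awat2 over Awat1. Without LowAhR+AD replicate 1, tried after seeing the data, the differences were -2.12 and -2.64, still with no overlap (exact permutation p = 0.0571, the smallest that 3 against 4 can give). Between LowAhR+AD+BJ and LowAhR+AD the ratio differed by 1.38 (exact permutation p = 0.143, adjusted p = 0.159), or by 0.97 without that library, and the groups overlapped.

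**Figure D2:**
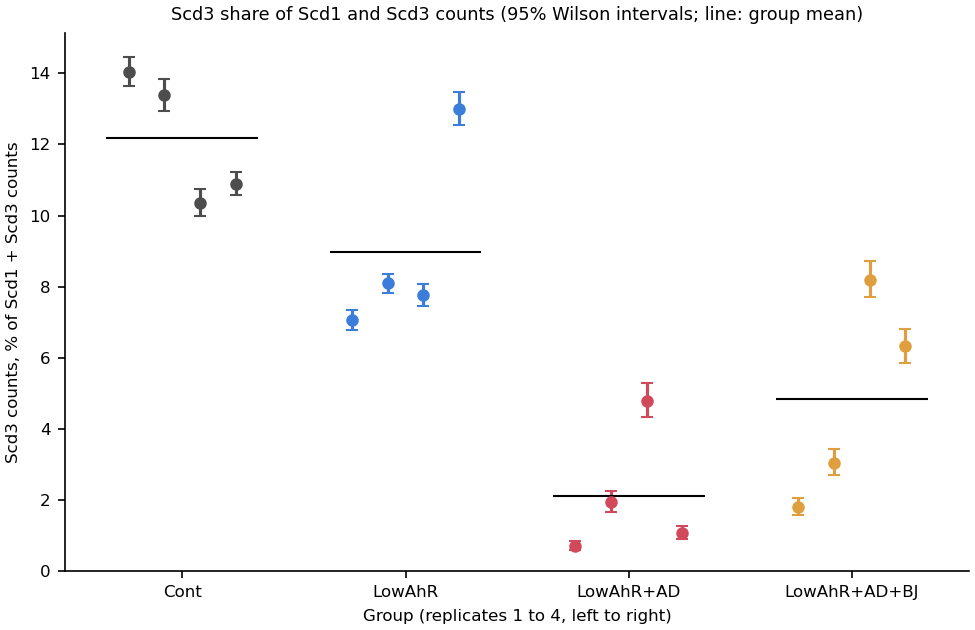
Scd3 counts as a percentage of Scd1 plus Scd3 counts in each of the 16 libraries. Points are libraries with 95% Wilson intervals, and lines are group means, 2.12% in LowAhR+AD, 4.84% in LowAhR+AD+BJ, 8.98% in LowAhR and 12.2% in Cont. The 4 LowAhR+AD libraries lie below all Cont and LowAhR libraries.

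Awat2 makes wax esters, a leading class of mouse sebum lipid, from fatty alcohols and acyl-CoA. The gene lies at chrX:100402221-100442717 on the minus strand and overlaps Otud6a on the other strand. Awat2 was low in Cont, at 9.62, 16.01, 19.6 and 29.4 CPM. LowAhR had 94.5, 72.7, 45.1 and 34.8 CPM, each above every Cont library. In LowAhR+AD the level was 0.305, 9.27, 16.9 and 12.4 CPM, each below every LowAhR library, where 0.305 CPM in replicate 1 stands for 4 counts. LowAhR+AD+BJ showed 38.0, 28.2, 12.98 and 8.27 CPM and overlapped the other groups. Awat2 fell by 2.66 on the log2 scale (SE 0.70), to a 6.34-fold lower level, in LowAhR+AD against LowAhR (adjusted p = 0.0193, edgeR with Benjamini-Hochberg adjustment). Without LowAhR+AD replicate 1 the log2 difference was -2.27 (adjusted p = 0.00863, edgeR), and without LowAhR replicate 1 it was -2.38 and no longer called (adjusted p = 0.0580, edgeR).

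Dgat2, at chr7:99153658-99182719 on the minus strand, adds the last fatty acid to a triglyceride. It was close to constant in Cont, at 158, 166, 160 and 170 CPM. LowAhR libraries were at 180, 175, 181 and 114 CPM. LowAhR+AD libraries had 28.4, 80.0, 104 and 70.2 CPM, and LowAhR+AD+BJ libraries 55.7, 94.4, 96.2 and 82.0 CPM, all below every library without DNCB. Dgat2 fell by 1.20 on the log2 scale (SE 0.30) in LowAhR+AD against LowAhR, to a 2.29-fold lower level (adjusted p = 0.0137, edgeR with Benjamini-Hochberg adjustment). It stayed called without LowAhR+AD replicate 1, with a log2 difference of -0.94 (adjusted p = 0.0120, edgeR).

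The other 5 tested members did not pass between LowAhR+AD and LowAhR. Elovl3, an elongase that makes very long chain fatty acids in sebaceous gland and brown fat, lies at chr19:46131897-46135694 and overlaps Pitx3 on the other strand. It was at 130, 148, 277 and 108 CPM in LowAhR. It was at 194, 455, 294 and 408 CPM in LowAhR+AD, and the log2 difference was 1.03 (SE 0.39, adjusted p = 0.0936, edgeR with Benjamini-Hochberg adjustment), or 1.40 and called without LowAhR replicate 3 (adjusted p = 0.0435) and 1.22 without LowAhR+AD replicate 1 (adjusted p = 0.0538). Fasn, the synthase that builds palmitate, ranged from 51.0 to 91.4 CPM in LowAhR and from 65.4 to 267 CPM in LowAhR+AD, where the highest value was replicate 1. The Fasn gene lies at chr11:120805846-120824547. Its log2 difference of 0.77 was 0.15 without that library, and neither was called. Awat1, at chrX:100572251-100578205 and 129533 bases from Awat2, also makes wax esters. It was at 119 to 203 CPM in LowAhR and at 26.9 to 235 CPM in LowAhR+AD, a log2 difference of -0.16, or 0.19 without LowAhR+AD replicate 1. Soat1, at chr1:156424525-156474331, makes cholesteryl esters and differed by 0.50 (SE 0.37) on the log2 scale, or by 0.79 without LowAhR+AD replicate 1 (adjusted p = 0.0916, edgeR). Plin2, at chr4:86648386-86670060, codes for a coat protein of lipid droplets and differed by -0.073 (SE 0.35), or by 0.034 without that library.

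Mc5r, a melanocortin receptor that stimulates sebum secretion, was almost undetected. It had 21 counts in all, in 5 of 16 libraries, with at most 7 counts in 1 library (LowAhR replicate 2), and was not tested. The 4 LowAhR+AD libraries had 0 counts, and a count of 0 allows up to 3 counts, or 0.229 to 0.246 CPM in these libraries. No difference between groups was detectable for Mc5r at this depth.

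The same 4 groups also answer whether the members differed from mice on normal chow. LowAhR+AD against Cont had 3 of 9 members called, all lower, where 21.8% of all genes were called and 9.47% were called lower. The same 3 members lay below Cont in every LowAhR+AD library, as did 11.8% of all genes. Scd1 fell by 1.94 (SE 0.28, adjusted p = 0.00023), Scd3 by 4.83 (SE 0.49, adjusted p = 2.94e-05) and Dgat2 by 1.21 (SE 0.30, adjusted p = 0.00751) on the log2 scale, by edgeR with Benjamini-Hochberg adjustment. Awat2 differed by -0.94 (SE 0.67, adjusted p = 0.352, edgeR), from 18.7 ± 8.28 in Cont to 9.74 ± 7.03 CPM (SD, n = 4), and the groups overlapped. Without LowAhR+AD replicate 1 the log2 differences were -2.12 for Scd1, -4.63 for Scd3, -0.96 for Dgat2 and -0.55 for Awat2, with the same 3 called. The remaining tested members differed by 0.93 (Elovl3, adjusted p = 0.103, edgeR), 0.47 (Fasn), 0.42 (Soat1), 0.38 (Plin2) and 0.10 (Awat1). Without that library Fasn was at -0.16, Soat1 at 0.70 and Awat1 at 0.44. This comparison shares its LowAhR+AD libraries with the one against LowAhR and is not independent of it.

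The low AhR ligand diet, given together with paper bedding, was addressed by LowAhR against Cont, in which diet and bedding cannot be told apart. Of the 9 members tested, 0 were called by edgeR, as were 0% of all genes, and 0 members by DESeq2 or limma voom, where DESeq2 called 491 genes in all and limma voom 0. At an unadjusted edgeR p under 0.05 there was 1 member, Awat2, beside 13.7% of all genes. Awat2 was 3.31-fold higher on average in LowAhR (log2 difference 1.72, SE 0.68, adjusted p = 0.248, edgeR with Benjamini-Hochberg adjustment), with 4 of 4 LowAhR libraries above all Cont libraries, as for 5.68% of all genes. In a model of only these 8 libraries it was called (adjusted p = 0.0384, edgeR), 1 of 250 genes called there. The log2 ratio of Awat2 to Awat1 was 1.47 higher in LowAhR, again without overlap (exact permutation p = 0.0286, adjusted p = 0.0571). The intervals of the other members left room for moderate changes: for Scd1 the log2 difference of 0.25 had a 95% interval of -0.32 to 0.81, and for Plin2 that of 0.45 ran from -0.28 to 1.19. The remaining tested members differed by -0.33 (Scd3), -0.30 (Fasn), -0.10 (Elovl3), 0.26 (Awat1), -0.079 (Soat1) and -0.0093 (Dgat2).

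**Figure D3:**
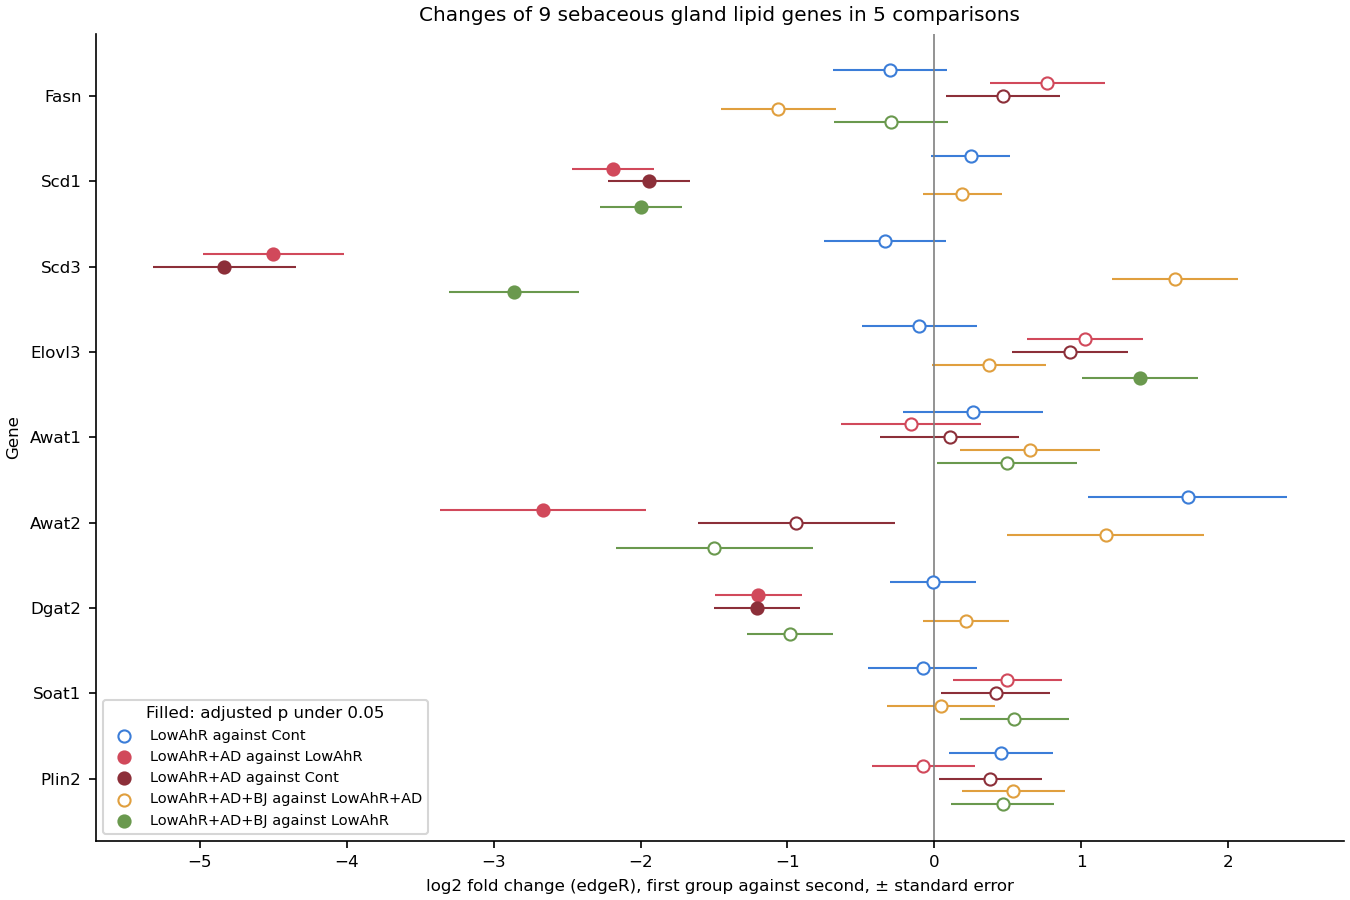
Log2 fold change of the 9 tested members in 5 comparisons, first group against second, with 1 SE from edgeR. Filled points passed an adjusted p under 0.05: Scd1 and Scd3 are filled and left of 0 in all 3 comparisons of a DNCB group with a group without DNCB, and no point is filled for LowAhR against Cont or LowAhR+AD+BJ against LowAhR+AD.

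Whether BJIKT changed the members in DNCB-treated skin was tested between LowAhR+AD+BJ and LowAhR+AD. By edgeR 0 of 9 members were called, as were 0% of all genes, and DESeq2 and limma voom also called 0 members, with 17 and 0 genes called in all. At an unadjusted edgeR p under 0.05 there were 2 members, Scd3 and Fasn, beside 9.46% of all genes. Scd3 was 3.11-fold higher on average with BJIKT (log2 difference 1.64, SE 0.43, unadjusted p = 0.00125, adjusted p = 0.498, edgeR with Benjamini-Hochberg adjustment). Only 2 of 4 LowAhR+AD+BJ libraries, replicates 3 and 4, lay above all LowAhR+AD libraries (exact permutation p = 0.0857), and the adjusted p over the alternatives was 0.0521 to 1. Fasn was at 49.7 to 77.6 CPM with BJIKT and differed by -1.06 (SE 0.39, adjusted p = 0.499, edgeR), or by -0.45 without LowAhR+AD replicate 1. For Scd1 the difference was 0.19 with a 95% interval of -0.37 to 0.76, and for Dgat2 0.21 with -0.40 to 0.83, both on the log2 scale. The log2 differences without LowAhR+AD replicate 1 were 0.35 for Scd1, 1.41 for Scd3 and -0.057 for Dgat2. With all libraries the remaining tested members differed by 1.17 (Awat2), 0.65 (Awat1), 0.54 (Plin2), 0.37 (Elovl3) and 0.049 (Soat1), and Awat1 by 0.30 without that library.

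Set against LowAhR, with which they share the diet but neither DNCB nor BJIKT, the LowAhR+AD+BJ libraries had 3 of 9 members called, 2 lower and 1 higher, beside 6.77% of all genes, of which 3.12% were lower and 3.64% higher. Of the 9, 3 lay below LowAhR in every library, Scd1, Scd3 and Dgat2, as did 8.19% of all genes. Scd1 fell by 2.00 (SE 0.28, adjusted p = 0.000913) and Scd3 by 2.86 (SE 0.44, adjusted p = 0.00143) on the log2 scale, by edgeR with Benjamini-Hochberg adjustment, where 7 of 12 adipocyte markers were also called lower. Elovl3 rose by 1.40 (SE 0.40, adjusted p = 0.0413, edgeR), from 166 ± 75.8 to 437 ± 218 CPM (SD, n = 4). The Elovl3 libraries of LowAhR+AD+BJ held 669, 520, 152 and 409 CPM, so replicate 3 lay within the LowAhR range, and the call did not hold throughout. It was lost in 4 of 10 other settings with all libraries of both groups: limma voom (adjusted p = 0.0567), the 8-library model (0.0627), the replicate block (0.0847) and a minimum change of 2-fold (0.928). It was also lost without LowAhR replicates 1, 2 or 4 or LowAhR+AD+BJ replicates 1, 2 or 4 in turn (adjusted p = 0.0840 to 0.137, edgeR). Dgat2 differed by -0.98 (SE 0.29) and missed the threshold (adjusted p = 0.0517, edgeR), but passed it without LowAhR replicate 4 (adjusted p = 0.0359). Awat2 differed by -1.50 (SE 0.67, adjusted p = 0.196, edgeR) and was not called. Nor were Soat1 (0.55), Awat1 (0.49), Plin2 (0.47) and Fasn (-0.29). The LowAhR libraries serve as reference here and for LowAhR+AD, so the 2 sets of falls are not independent.

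Scd1 dominated the summed level of the 10 members where DNCB was not given. It made up 63.6% ± 1.22 of their summed CPM in Cont and 64.4% ± 3.13 in LowAhR, against 33.0% ± 9.36 in LowAhR+AD and 30.6% ± 8.57 in LowAhR+AD+BJ (SD, n = 4). The summed level itself was 4719 ± 749, 5478 ± 1547, 2420 ± 541 and 3095 ± 880 CPM in the same order. In LowAhR+AD without replicate 1 the share was 28.5% ± 3.37 and the sum 2481 ± 646 CPM (SD, n = 3).

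Members do not show by themselves which cells carried a change, because fewer cells of a type and less RNA per cell cannot be told apart in whole skin. The sebaceous gland marker genes, other than the members, had a summed level of 1951 to 2490 CPM in LowAhR and 1648 to 3254 CPM in LowAhR+AD, which overlapped. Cont, at 2607 to 3590 CPM, lay above LowAhR without overlap, and so did LowAhR+AD+BJ, at 2509 to 4005 CPM, where Scd1 and Scd3 were lower. In LowAhR+AD against Cont 5 of the 12 were called, 1 higher and 4 lower. Their median log2 fold change there was -0.33, or -0.16 without LowAhR+AD replicate 1. In LowAhR+AD+BJ against LowAhR 1 was called higher, Krt79, and 1 lower, Plin5, which is also a droplet coat of oxidative tissues. Between LowAhR+AD and LowAhR 2 were called, a share of 16.7%, both lower, among them Acsbg1, an acyl-CoA synthetase. The median log2 fold change of the 12 was -0.48, or -0.065 without LowAhR+AD replicate 1, where 3 were called lower. The summed levels rested most on Elovl4 and Krt79, at means of 741 and 518 CPM in LowAhR and 988 and 737 CPM in LowAhR+AD. Of all genes, 12.6% were called in that comparison, 21.8% in LowAhR+AD against Cont and 6.77% in LowAhR+AD+BJ against LowAhR. Adipocyte markers were lower along with the desaturases. Their sum was 8656 to 13194 CPM in LowAhR and 438 to 4086 CPM in LowAhR+AD without overlap, and 8 of 12 were called lower, with a median log2 fold change of -1.94. LowAhR+AD replicate 1 held the lowest sebaceous gland (1648 CPM), hair follicle (7055 CPM) and adipocyte (438 CPM) sums of its group. Without it 9 adipocyte markers were called lower, with a median of -1.57. In LowAhR+AD+BJ the sum was 2687 to 3884 CPM, again below LowAhR without overlap, and 7 of 12 were called lower, with a median of -1.83. Against Cont, at 3392 to 6501 CPM, 4 of 12 were called lower in LowAhR+AD with a median of -0.77, and the log2 fold change of Scd3 was -4.83 against Cont and -4.50 against LowAhR. Between LowAhR and Cont the adipocyte sums did not overlap, although 0 of 12 genes were called, and the Scd1 and Dgat2 levels of these groups did overlap. The part of fat cells in the lower Scd1, Scd3 and Dgat2 levels was not tested. Skeletal muscle markers were also lower in LowAhR+AD against LowAhR, 12 of 12 called, or 11 without LowAhR+AD replicate 1. Hair follicle markers, at 101 to 10390 CPM in LowAhR and 7055 to 25916 CPM in LowAhR+AD, had 1 of 16 called, higher, between those groups and 15 of 16 called higher against Cont. Taking muscle, hair and fat markers out of the library sizes changed no member's call. TMM factors were recomputed with these genes still in, which offsets that change, so this setting does not test their part. All 6 activated keratinocyte markers were called higher in both DNCB groups against LowAhR, 4 of 5 tested neutrophil markers were called higher in LowAhR+AD and 2 of 5 in LowAhR+AD+BJ, and 0 of 10 macrophage markers were called in either. Of 8 epidermis markers, 2 were called higher and 1 lower in LowAhR+AD against LowAhR. Whether any of these moved the members was not tested.

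**Figure D4:**
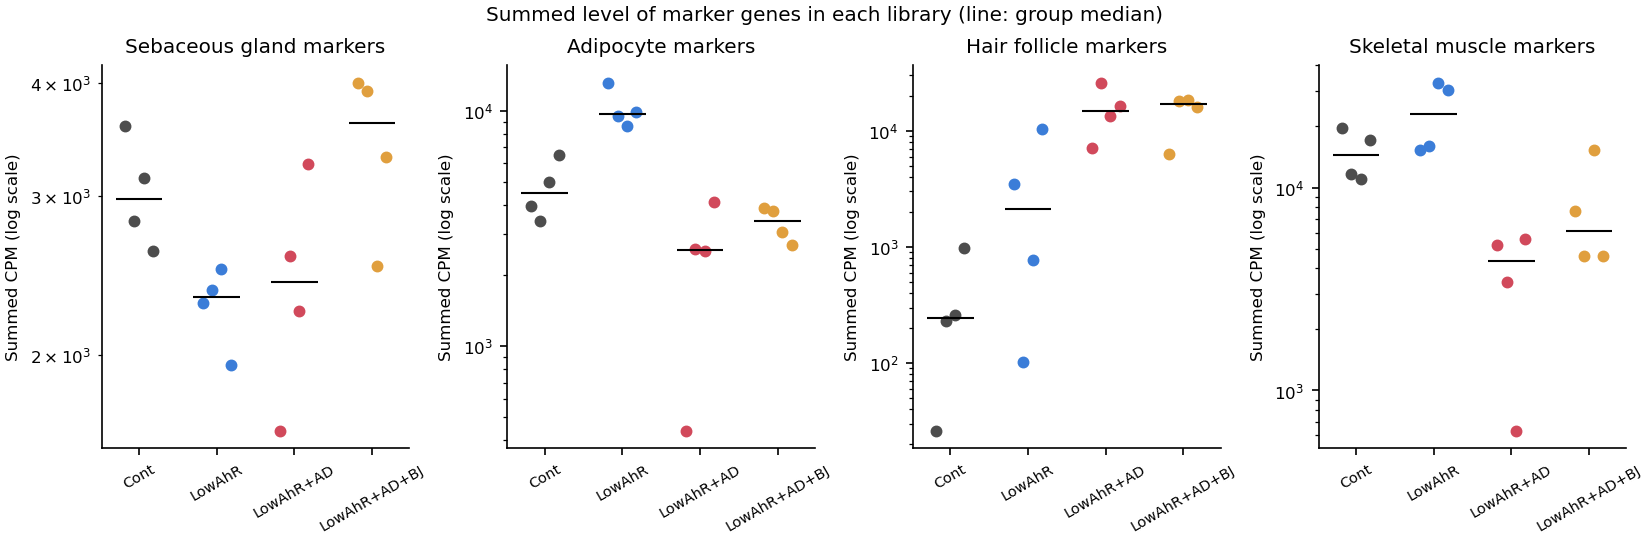
Summed CPM of marker genes in each library, on a log axis, for sebaceous gland (12 genes), adipocyte (12), hair follicle (16) and skeletal muscle (12). Points are libraries, lines are group medians. Adipocyte and muscle sums are lower in LowAhR+AD than in LowAhR without overlap, while sebaceous gland sums of these groups overlap. The median log2 fold change of the 12 sebaceous gland genes between these groups was -0.48, or -0.065 without LowAhR+AD replicate 1.

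Other genes of the members' pathways were read from 5 lists of 76 genes, of which 70 were tested. These lists were also chosen with earlier results known, so their counts are descriptions. In LowAhR+AD against LowAhR, 18 of the 70 were called, 6 higher and 12 lower (25.7%, beside 12.6% of all genes), with a median log2 fold change of -0.15. Without LowAhR+AD replicate 1 the count was also 18, of which 16 were the same genes, and Cebpb and Cideb were no longer called. Among 9 genes that feed fatty acid synthesis, 0 were called higher and 3 lower. Thrsp, a lipogenic regulator also known as Spot14, fell by 2.17 (SE 0.49, adjusted p = 0.00813) and Me1, malic enzyme, which supplies NADPH, by 1.07 (SE 0.25, adjusted p = 0.00952), by edgeR with Benjamini-Hochberg adjustment. Elovl6 was the third.

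Among 13 tested desaturases, elongases and related enzymes, 1 was called higher and 1 lower. Scd2, the desaturase of brain and of newborn skin, rose by 1.54 (SE 0.28, adjusted p = 0.00252, edgeR with Benjamini-Hochberg adjustment), from 29.5 ± 3.70 to 86.0 ± 25.1 CPM, opposite to Scd1 and Scd3. Elovl5, an elongase of polyunsaturated fatty acids, fell by 1.25 (SE 0.30, adjusted p = 0.0116, edgeR). In ester and wax synthesis, 1 of 13 was called higher and 3 lower. Far1, which reduces acyl-CoA to the fatty alcohol of wax esters, rose by 1.63 (SE 0.47, adjusted p = 0.0301, edgeR). Acsbg1 fell by 1.37 (SE 0.27) and Lpin1, a phosphatidate phosphatase of triglyceride synthesis, by 1.25 (SE 0.29), with adjusted p of 0.00355 and 0.0105 in edgeR.

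Of 15 lipid droplet genes, 1 was called higher and 3 lower. Cidec, a protein of the large fat droplets of adipocytes, fell by 2.26 (SE 0.35, adjusted p = 0.000825) and Plin4, another adipocyte droplet coat, by 1.12 (SE 0.26, adjusted p = 0.00952), by edgeR with Benjamini-Hochberg adjustment. Cideb rose by 3.32 (SE 1.07, adjusted p = 0.0485, edgeR), a call that rested on LowAhR+AD replicate 1, without which the log2 difference was 1.43 (adjusted p = 0.417, edgeR). Both Cidec and Plin4 also stand in the adipocyte marker list, which has 4 of its 12 genes in the pathway lists. The sebaceous gland marker list has 10 of its 12 genes there, Acsbg1 and Plin5 among them, so the 2 kinds of count are not independent. Of 20 tested receptors and regulators, 3 were called higher and 2 lower. Sox9, a factor of hair follicle and sebaceous progenitors, rose by 2.64 (SE 0.52, adjusted p = 0.00391) and Ppard, a lipid-sensing nuclear receptor, by 1.18 (SE 0.29, adjusted p = 0.0136) in edgeR. Without LowAhR+AD replicate 1 the log2 differences were 1.81 for Sox9 (adjusted p = 0.0067, edgeR) and 0.88 for Ppard (adjusted p = 0.0434, edgeR). Hsd3b6, a steroid enzyme, fell by 1.60 (SE 0.41, adjusted p = 0.0167, edgeR).

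In LowAhR+AD against Cont, 23 of the 70 were called, 6 higher and 17 lower (32.9%, beside 21.8% of all genes), or 25 without LowAhR+AD replicate 1, 21 of them the same. Log2 fold changes of falls were -2.45 for Thrsp, -1.75 for Lpin1, -1.73 for Acsbg1, -1.72 for Plin5, a droplet coat of oxidative tissues, -1.55 for Elovl5, -1.33 for Me1 and -1.19 for Cidec. Scd2 rose by 1.02, Far1 by 1.47, Sox9 by 1.75, Hilpda, a droplet protein induced by hypoxia, by 1.55 and Acsl3, an acyl-CoA synthetase, by 1.21. The Sox9 difference was 0.90 and not called without LowAhR+AD replicate 1 (adjusted p = 0.103, edgeR). Gata6, a factor of the sebaceous duct, fell by 2.19 (SE 0.57) and Fa2h, which hydroxylates fatty acids, by 1.32 (SE 0.30), with adjusted p of 0.0107 and 0.00500 in edgeR. In LowAhR+AD+BJ against LowAhR, 9 were called, 2 higher and 7 lower (12.9%, beside 6.77% of all genes). The 2 were Far1, which rose by 2.38 (SE 0.48, adjusted p = 0.00795), and Sox9, by 1.72 (SE 0.50, adjusted p = 0.0457), in edgeR. The falls had log2 fold changes of -2.35 for Thrsp, -2.33 for Cidec, -1.36 for Plin4, -1.31 for Lpin1 and -0.99 for Acsl1, an acyl-CoA synthetase of fat. Mrap, a partner of melanocortin receptors that is also made in fat, fell by 1.61 (SE 0.47, adjusted p = 0.0444, edgeR). In LowAhR against Cont and in LowAhR+AD+BJ against LowAhR+AD, edgeR called 0 of the 70. The 2 most abundant genes of each list were Elovl6, Me1, Elovl4, Elovl7, Acsl5, Dgat1, Cidec, Cidea, Sox9 and Rxra. Their log2 differences were -0.89 (Sox9) to 1.07 (Cidec) in the first comparison and -0.91 (Sox9) to 0.65 (Elovl7) in the second.

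**Figure D5:**
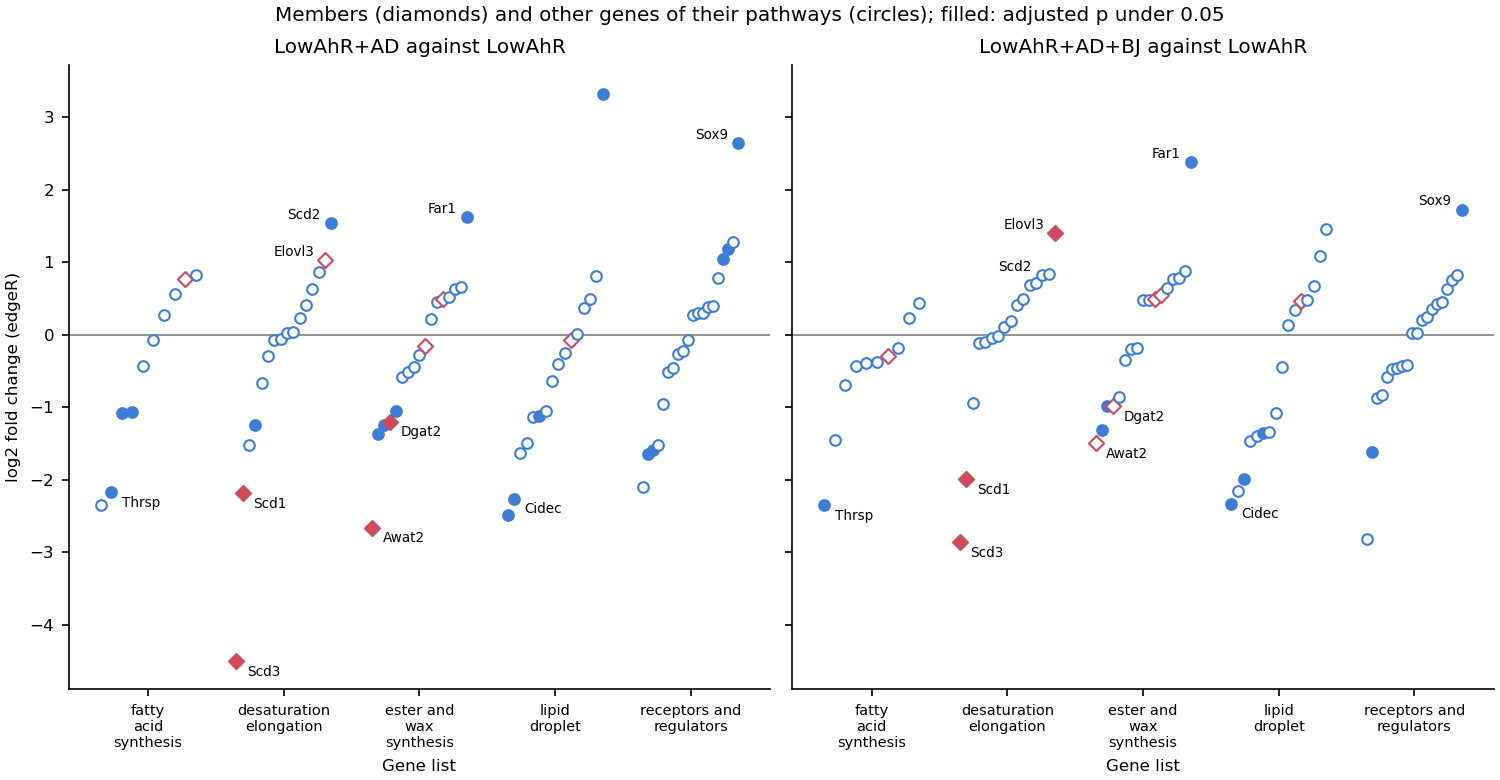
Log2 fold change of members (diamonds) and other genes (circles) of 5 pathway lists, sorted within each list, for LowAhR+AD (left) and LowAhR+AD+BJ (right) against LowAhR. Filled symbols passed an adjusted p under 0.05 in edgeR. Scd3 is the lowest point of both panels, at -4.50 and -2.86, and Scd2 is filled above 0 in the left panel only, a difference that was not tested.

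Across the 16 libraries the genes most like the mean of the 9 tested members (Pearson r of log2 CPM after each group's mean was removed) were Ndufb2, a subunit of respiratory complex I (r = 0.978), and Cidea, a droplet protein of brown fat and sebaceous gland (r = 0.955). Both kept high values without LowAhR+AD replicate 1, at 0.961 and 0.922 over 15 libraries. Ndufv2, Lyrm4, Uqcrc2, Rarres1, Mrpl33, Cox7b, Usmg5 and Acsl5 followed, at 0.945 to 0.910. With group means left in, Cidea came first (r = 0.896), or 0.745 without that library. Among members, Dgat2 and Scd3 went together within groups (r = 0.636, and 0.611 without that library) while Scd1 and Scd3 did not (r = -0.245 and -0.104). Plin2 and Awat1 had r = 0.711, and 0.871 without it. Awat2 and Awat1 had r = 0.789 with LowAhR+AD replicate 1 and 0.426 without it. Scd3 ran opposite to Awat1 (r = -0.224, and -0.837 without that library), Plin2 (-0.493 and -0.627) and Elovl3 (-0.344 and -0.565). The mean of the 9 members thus averages genes that ran opposite within groups, and likeness to it does not describe each member. These are descriptions over shared libraries that differ in depth, not tests.

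Promoter sequence was looked up because the diet lowers ligands of AhR, whose response element has the core GCGTG. RefSeq promoters of GRCm38.p6, 250 bases before to 50 after a gene's start, were listed for 6 of the members with 7 entries. The windows of Scd3 and Awat2, the 2 called members with an entry, are printed 5' to 3' on the gene's strand, with capitals for GCGTG or its reverse complement CACGC. The Scd3 window is chr19:44203038-44203337 on the plus strand. Awat2 had 2 starts, with windows at chrX:100442668-100442967 and chrX:100412538-100412837, both on the minus strand.
Scd3: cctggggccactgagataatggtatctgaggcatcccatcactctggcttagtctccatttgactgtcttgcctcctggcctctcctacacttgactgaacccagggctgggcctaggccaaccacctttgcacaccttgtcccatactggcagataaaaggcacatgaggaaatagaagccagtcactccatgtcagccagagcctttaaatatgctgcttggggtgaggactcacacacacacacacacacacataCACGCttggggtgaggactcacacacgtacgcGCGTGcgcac
Awat2 upstream start: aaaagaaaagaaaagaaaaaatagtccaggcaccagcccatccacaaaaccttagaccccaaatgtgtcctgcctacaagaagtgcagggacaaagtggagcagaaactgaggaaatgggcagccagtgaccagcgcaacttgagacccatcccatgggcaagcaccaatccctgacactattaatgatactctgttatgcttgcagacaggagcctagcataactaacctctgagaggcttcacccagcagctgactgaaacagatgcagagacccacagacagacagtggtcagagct
Awat2 downstream start: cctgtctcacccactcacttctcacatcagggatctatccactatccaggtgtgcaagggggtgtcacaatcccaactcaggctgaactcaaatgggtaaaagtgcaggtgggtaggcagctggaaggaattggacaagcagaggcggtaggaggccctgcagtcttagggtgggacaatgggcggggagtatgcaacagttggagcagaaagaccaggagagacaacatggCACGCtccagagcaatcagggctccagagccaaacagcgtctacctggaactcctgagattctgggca
The core was matched 2 times in the Scd3 window, 0 times at the upstream Awat2 start and 1 time at the downstream one, on either strand. Fasn had 3 matches, Soat1 2, Plin2 1 and Awat1 0. A match was found in 32.4% of all 32851 RefSeq promoters of this length. A match is a run of letters, not a measured binding site, and its relation to the members' levels was not tested.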

How the data were processed

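QuantSeq 3' libraries were made from total RNA of dorsal skin, 1 per mouse, 4 mice per group. The authors deposited whole-number read counts per gene symbol for each library, without normalization. The submitters' processing notes name Bowtie2, bedtools and mm10 (GRCm38), and the paper names ExDEGA for differential expression. Treatment of multiply mapped reads, the annotation and filters are not given in the sources used here. Groups and replicates came from the sample labels.

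Tests used edgeR 4.0.16 under R 4.3.3: filterByExpr (minimum count 10, minimum total 15), TMM factors of 0.892 to 1.16 and the quasi-likelihood test with all 16 libraries in 1 model, 14854 rows tested and Benjamini-Hochberg adjustment over them. Library totals were 7080508 to 13467477 counts, so 3 counts, the most that a count of 0 allows, are 0.229 to 0.406 CPM. CPM used TMM-scaled totals and log2 CPM a prior count of 2. SE is the absolute log2 fold change over the square root of F, and intervals use the test's degrees of freedom. Single values were compared by two-sided exact permutation tests (scipy 1.17.1), for 45 pairs of member and comparison, of which 11 reached the smallest possible p. Replicates are separate mice. Pairs of them differed by a chi-square of 16.4 to 285 for each degree of freedom, above sampling noise, so each library counted once. Positions are from the GENCODE annotation of GRCm38.

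The 10 members, the 5 pathway lists and the 8 marker lists were chosen with earlier results of these data known. Members are reported in every comparison. From each pathway list at most 2 called rises and 2 called falls of lowest adjusted p are named per comparison, or, where none was called, the 2 most abundant genes. The 10 genes most like the members were taken by Pearson r. Single-gene results for 1 gene of the lists are not reported here, though the counts include it. Elovl6 was named as a member of a count after its value was seen. Scripts were tested on simulated data. Other settings tried were DESeq2 1.42.0, limma voom (limma 3.58.1), factors by RLE or upper quartile, no filter, at least 10 counts in every library, a replicate block, models of the 8 libraries of a comparison, library sizes without muscle, hair and fat markers, a minimum change of 2-fold, each library left out, list counts, the Scd3 to Scd1 ratio and summed member levels without LowAhR+AD replicate 1 (added after seeing the data), and a prior count of 0.5 for the permutation tests.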

Additional observations from a re-analysis of the deposited data

Results flagged for a closer look

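In 36 sets of 4 libraries (9 members in 4 groups), 3 had 1 library apart from the others, where the gap to its neighbour over the range passed Dixon's 95% critical value. Chance flags about 1 in 20 such sets. Scd3 in LowAhR replicate 2 was at 416 CPM, above 293 to 309 CPM in the others (ratio 0.855). Awat2 in LowAhR+AD replicate 1 was at 0.305 CPM, below 9.27 to 16.9 CPM in the others (ratio 0.831). In that library 32.6% of the genes expected at 20 to 40 counts were at 0. The 0.305 CPM stands for 4 counts, a level at which the log2 scale widens the gap. Dgat2 in LowAhR replicate 4 was at 114 CPM, below 175 to 181 CPM in the others (ratio 0.927).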

How the results depend on the processing

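Of 805 recomputed member values, 756 kept direction and side of the threshold, 16 lost a call, 9 gained one and 24 changed sign, 22 of these with 1 library left out. Scd1 and Scd3 were called lower in every setting run for both DNCB groups against LowAhR and for LowAhR+AD against Cont, as was Dgat2 in LowAhR+AD against Cont, other than with the minimum change of 2-fold. In the model of only the 8 libraries compared, 1 member was called for LowAhR against Cont (Awat2) and 2 for LowAhR+AD against LowAhR (Scd1 and Scd3), where the minimum change of 2-fold also left 2. The lost calls there were Awat2 (adjusted p = 0.0707 and 0.147, edgeR) and Dgat2 (0.0738 and 0.761, edgeR), and the cause was not tested. Elovl3 in LowAhR+AD against LowAhR was called without LowAhR replicate 3 (adjusted p = 0.0435, edgeR). Awat2 had too few counts for the filter of at least 10 in every library. The exact permutation tests gave 11 at the smallest p with either prior count.

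Log2 differences that changed sign, none of them called, ranged over the settings with 1 library left out as follows. For LowAhR against Cont they ran from -0.50 to 0.090 (Fasn), from -0.46 to 0.071 (Elovl3), from -0.27 to 0.050 (Soat1) and from -0.063 to 0.13 (Dgat2). For LowAhR+AD against LowAhR they ran from -0.50 to 0.19 (Awat1) and from -0.29 to 0.10 (Plin2). For LowAhR+AD against Cont they ran from -0.16 to 0.86 (Fasn) and from -0.24 to 0.44 (Awat1), and limma voom gave -0.34 for Awat1. For LowAhR+AD+BJ against LowAhR+AD they ran from -0.25 to 0.25 (Soat1) and from -0.057 to 0.46 (Dgat2). With 1 library left out, 3 to 5 members were called in LowAhR+AD against LowAhR and 2 to 3 in LowAhR+AD+BJ against LowAhR.

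Same-numbered libraries share only a number: their deviations correlated at -0.055 to 0.17, over 0.1 in 3 of 20 pairs. With the replicate block, Awat1 in LowAhR+AD against Cont was at -0.035. Counts of members called with the block were 0, 4, 3, 0 and 3 in the 5 comparisons, and in LowAhR+AD+BJ against LowAhR the block lost Elovl3 (adjusted p = 0.0847, edgeR) and called Dgat2 (adjusted p = 0.0413, edgeR). Dgat2 there was also called with RLE and upper-quartile factors, DESeq2, the strict filter, the 8-library model and without LowAhR replicate 4. Depth limits Mc5r, and 4 mice per group limit every comparison.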
